A study of Drosophila melanogaster with 2 samples.

Results

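Binding of maf-S, the small Maf leucine zipper protein of Drosophila melanogaster, was examined at 8 genes of the apoptosis machinery: rpr, hid, grim, skl, Diap1, Dronc, Drice and p53. The genes were chosen by name, and each was taken with 5 kb either side on the dm6 assembly. They are 8 of the 13945 protein-coding genes annotated on the 6 chromosome arms that hold peaks. The chromatin immunoprecipitation came from whole embryos of both sexes, 0 to 24 hours old. The embryos were of 1 line that stably expresses maf-S with eGFP at its C-terminus, and the protein was pulled down with an antibody to GFP. There was 1 group of 2 biological replicates (numbers 2 and 3), from separate biosamples per the labels. The labels do not give the promoter that drives the fusion, and whole embryos mix many cell types, so a peak is an average over them. The labels give no read depth. They name a control experiment, whose data were not analysed here.

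Programmed cell death in the fly turns on the balance between caspases and an inhibitor. Diap1 holds the caspases in check, and the small proteins encoded by rpr, hid, grim and skl bind Diap1 and relieve that block. Dronc is the initiator caspase, Drice the main effector caspase, and p53 is the transcription factor that induces death genes, rpr among them, after DNA damage. Embryos use this machinery to remove surplus cells in several tissues.

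The peak lists give each peak a signal value, assigned by the authors' peak caller, whose scale is not stated and is used here only within a list. Rank 1 is the strongest peak of its list. The thresholded list held 3205 peaks, with signals of 72.3 or more, and these were exactly the 3205 strongest of the 30000 peaks of the pooled list. The list of each replicate also held 30000 peaks, so a low rank there need not mark a binding site.

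A thresholded summit lay within 5 kb of 5 of the 8 genes, namely rpr, hid, Diap1, Drice and p53, against 41.8% of all protein-coding genes. Within 1 kb of a start site the count was 3 of 8, hid, Diap1 and p53, against 19.4% of all protein-coding genes. By the gene with the nearest start site, at any distance, it was 4 of 8 (rpr, hid, Diap1 and p53) against 16.7%. With 8 genes and no comparison group, these counts carry no test. The windows held 9 thresholded summits and 67 pooled-list peaks in all. That is 72.9 thresholded summits per Mb of window, and 49.6 per Mb without Diap1, which alone had 4. Around all protein-coding genes, with overlapping windows counted once, the density was 27.7 per Mb. Those merged windows cover 111332 of the 133881 kb of the 6 arms, where it was 23.9 per Mb. The 27.7 is therefore not the density in the window of a typical gene, and the size of any excess was not measured. The median rank of the strongest pooled peak was 2020 over the 8 genes and 4364 over all protein-coding genes, and the median gene lengths were 2225 and 2166 bp.

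**Figure D1:**
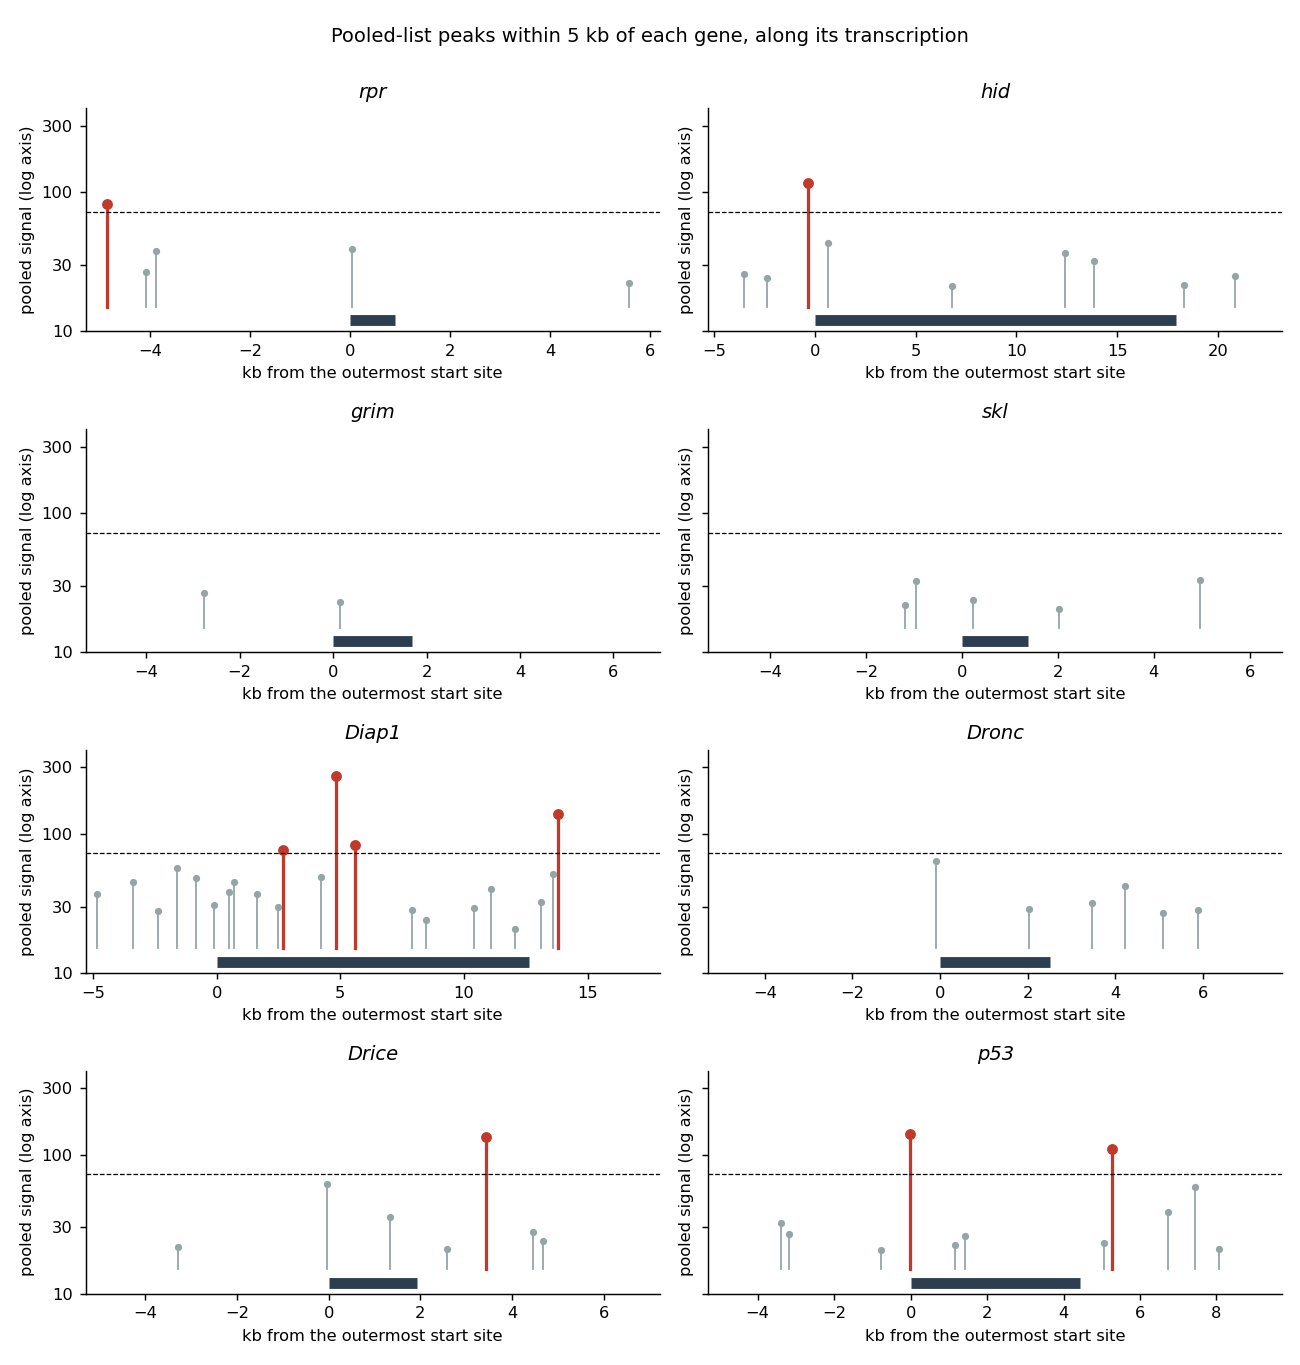
Pooled-list peaks within 5 kb of each gene, as signal on a log axis against distance in kb from the gene's outermost start site, with transcription to the right and the gene drawn as a dark bar. Red stems are the 9 thresholded peaks, grey stems are weaker peaks, and the dashed line is the lowest thresholded signal, 72.3. Diap1 carried 4 red stems, p53 had 2, and grim, skl and Dronc had none.

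The inhibitor gene had the strongest peak of the group. Diap1 (FBgn0260635, chr3L:16038410-16051034, minus strand) has 5 annotated start sites, and its strongest peak, chr3L:16046105-16046299, had its summit at 16046221 in an intron, 625 bp downstream of the nearest of them. The pooled signal was 259, rank 300. In replicate 2 the matching peak had a signal of 101 and rank 370, and in replicate 3 a signal of 167 and rank 226. Both replicates thus placed it among their strongest peaks, and 6.24% of all protein-coding genes had a better-ranked best peak in their window.

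The other Diap1 sites were weaker and lay on both sides of it. A second intronic summit at 16045454 had signal 83.3 and rank 2553 (2687 in replicate 2 and 2652 in replicate 3). Another intronic summit, at 16048343, had signal 76.0 and rank 2955 (2623 and 3965). That summit was 1497 bp from the nearest Diap1 start site but 892 bp from that of lncRNA:CR43951, a non-coding RNA gene inside Diap1. The remaining peak, chr3L:16037034-16037423, with signal 139 and rank 1044 (1511 and 928), lay beyond the 3' end of Diap1 and was nearest to the start site of CG5895, 1551 bp away. So 3 of the 4 summits were inside the gene, in introns, and none lay within 500 bp of a Diap1 start site. The start site nearest to the strongest summit had a peak of its own, 21 bp away, with signal 48.6 and rank 5872. Replicate 2 ranked this peak 10129 and replicate 3 ranked it 5621. At the outermost start site a peak 101 bp upstream had signal 31.0 and rank 13175, and it was matched in replicate 2 (rank 4950) but not in replicate 3. No peak within 500 bp of a Diap1 start site reached the signals of the thresholded intronic peaks.

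The window of 201 bp around the strongest Diap1 summit (dm6 chr3L:16046121-16046321, minus strand, from RefSeq Release 6) is shown because this is the strongest site near any of the 8 genes. Capitals mark the 11 bp at the summit, as none of the motifs searched was found.
Diap1 intron: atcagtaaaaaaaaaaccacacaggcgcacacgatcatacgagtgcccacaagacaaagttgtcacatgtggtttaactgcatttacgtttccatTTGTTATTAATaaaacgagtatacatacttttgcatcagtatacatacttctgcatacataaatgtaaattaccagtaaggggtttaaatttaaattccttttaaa

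Of the 4 genes whose products antagonise Diap1, hid and rpr had a thresholded peak in their window and grim and skl had none. All 4 lie on the minus strand of chromosome arm 3L, in the order hid, grim, rpr, skl. The hid gene (FBgn0003997, chr3L:18167745-18185641) had its peak at the promoter, chr3L:18185778-18186167, with the summit 332 bp upstream of its single start site. The pooled signal was 117, rank 1427. Replicate 2 gave signal 57.3 and rank 1174, and replicate 3 signal 62.3 and rank 1640. No other start site was closer to this summit. A weaker peak in the first kb of hid, at 18184989 in coding sequence, had signal 43.1 and rank 7168, with rank 3884 in replicate 2 and 7417 in replicate 3.

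The rpr gene (FBgn0011706, chr3L:18397535-18398435) had its thresholded peak far upstream. The peak chr3L:18403119-18403508 had its summit at 18403314, 4879 bp before the start site and so just inside the 5 kb window. Its signal was 81.9, rank 2613. In replicate 2 the signal was 32.6 and the rank 3295, and in replicate 3 the signal was 47.4 and the rank 2564. The rpr start site is nevertheless the nearest of any gene to this summit. At the rpr promoter itself a peak 40 bp downstream of the start had signal 39.4 and rank 8394. It was matched in replicate 3, with signal 31.0 and rank 5135, and had no match within 150 bp in the list of replicate 2.

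The rpr upstream peak held a match to the p53 consensus, a pair of adjacent half-sites that reads the same on both strands. The match allowed at most 1 mismatch in each half-site, and this one had 1 in each. It covered chr3L:18403257-18403276, between 38 and 57 bp from the summit and 4822 bp from the rpr start site. As background, rpr is known for a radiation-responsive element upstream of the gene that p53 binds. A match of this kind was present at 15 of the 3205 thresholded summits (0.468%, exact binomial 95% interval 0.262 to 0.771) and at 0.208% of the 19252 protein-coding start sites, in windows of 201 bp. It was absent from the other 8 thresholded windows of the group. The consensus was searched after the place of this peak was seen, so the match is a description of 1 site. Binding of p53 itself was not measured.

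The 201 bp around this summit (dm6 chr3L:18403214-18403414, minus strand as rpr is read, from RefSeq Release 6) show the match in capitals.
rpr upstream: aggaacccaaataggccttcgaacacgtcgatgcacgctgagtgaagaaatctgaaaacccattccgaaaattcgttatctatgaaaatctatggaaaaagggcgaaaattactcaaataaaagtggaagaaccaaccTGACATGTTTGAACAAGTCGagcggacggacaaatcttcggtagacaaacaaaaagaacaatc
The hid promoter peak (dm6 chr3L:18185873-18186073, minus strand) is set beside it, with the 11 bp at the summit in capitals, since no motif searched was found in it.
hid promoter: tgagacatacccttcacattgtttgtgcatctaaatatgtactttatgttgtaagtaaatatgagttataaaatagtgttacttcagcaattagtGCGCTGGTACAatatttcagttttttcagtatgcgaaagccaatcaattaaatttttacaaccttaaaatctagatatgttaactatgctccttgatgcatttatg

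The other antagonist genes stood far down the lists. For grim (FBgn0015946, chr3L:18302719-18304417) the strongest pooled peak, 2761 bp upstream of the start, had signal 26.6 and rank 17903. Its strongest peak in replicate 2 ranked 7570 and in replicate 3 14533, and these were different sites. For skl (FBgn0036786, chr3L:18438561-18439942) the strongest pooled peak, at 18434972 beyond the 3' end, had signal 32.9 and rank 11761. Its best rank was 19576 in replicate 2 and 11268 in replicate 3, again at different sites. Of all protein-coding genes, 79.4% had a better-ranked best peak than grim and 72.0% one better than skl. At the start sites themselves, a grim peak 140 bp downstream in the 5' UTR had signal 23.1 and rank 23209, with no match in replicate 2. A skl peak 228 bp downstream, in coding sequence, had signal 23.8 and rank 22009, also with no match in replicate 2. A skl peak 955 bp upstream, with signal 32.7 and rank 11857, lay in an exon of lncRNA:CR43280, whose start site was nearer (167 bp). The grim and skl windows held 2 and 5 pooled-list peaks, beside a median of 4.0 over all protein-coding genes. The Diap1 window held 22 but was larger, as Diap1 is 12625 bp long, grim 1699 bp and skl 1382 bp.

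**Figure D2:**
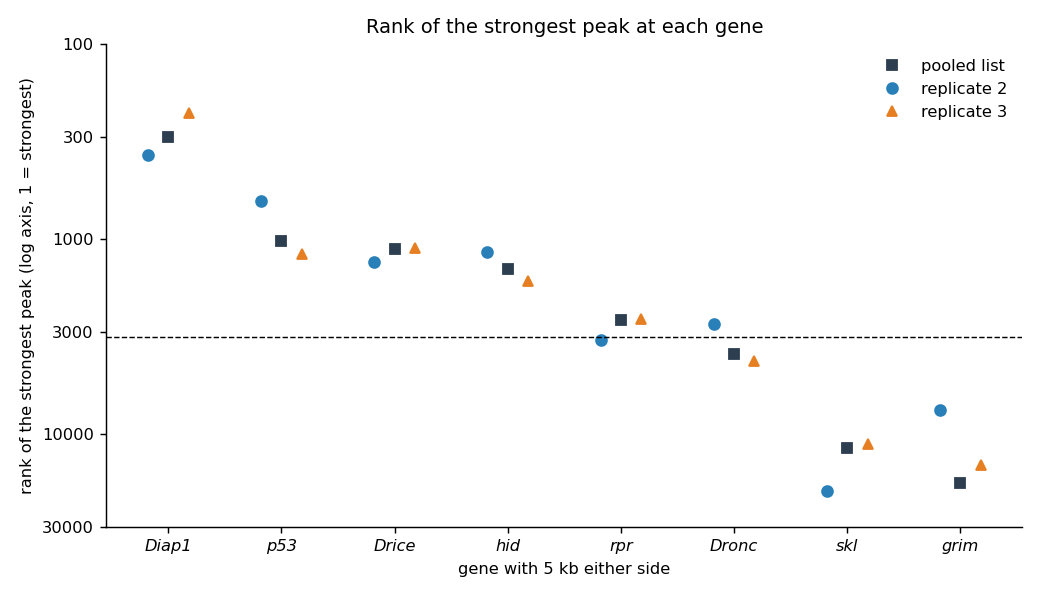
Rank of the strongest peak in each gene's window, on a log axis with rank 1 at the top, in the pooled list (squares), replicate 2 (circles) and replicate 3 (triangles). The dashed line is rank 3205. Diap1, p53, Drice and hid lay above it in all 3 lists, skl and grim below it in all 3, and rpr and Dronc crossed it between lists.

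These genes are spread over a long stretch with few genes in it. The stretch from hid to skl (chr3L:18167745-18439942, 272 kb) held 8 protein-coding genes and 7 thresholded summits, or 25.7 per Mb against 21.7 per Mb on the whole arm 3L. All 7 summits were intergenic, but so was 87.5% of the stretch, so their place is near what its makeup gives. Of all 3205 thresholded summits, 42.0% were intergenic. The strongest, at 18236046, had signal 173 and rank 682, with rank 652 in replicate 2 and 780 in replicate 3. It lay 50.4 kb upstream of hid, nearest to lncRNA:CR45937 (1286 bp). The next, at 18281372, had signal 159 and rank 813 (1676 and 589) and lay 23.0 kb from the start of grim, on its downstream side, with CG5103 the gene of the nearest start site (12890 bp). A further pair, 26.8 and 53.1 kb upstream of hid, had ranks 2028 (2799 in replicate 2 and 2011 in replicate 3) and 2245 (2855 and 1863). Between grim and rpr there was 1 summit, at 18348858, with signal 82.9 and rank 2569, 44.4 kb upstream of grim and 49.6 kb from rpr. In the 41.5 kb between the start sites of rpr and skl the rpr upstream peak was the only thresholded one. Which gene a distant site acts on was not measured.

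**Figure D3:**
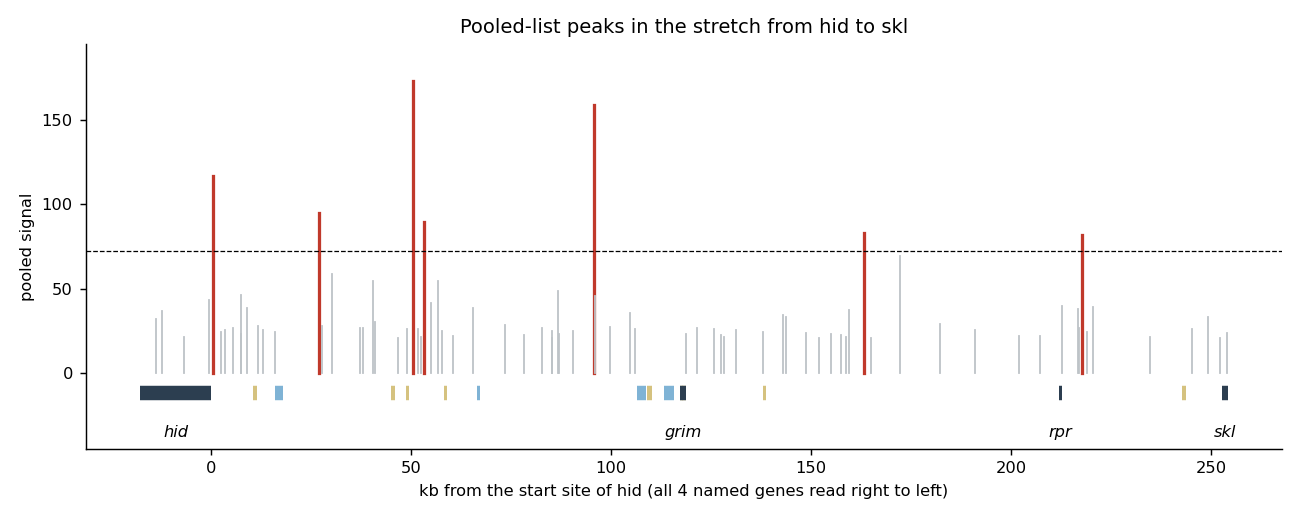
Pooled-list peaks from hid to skl, as signal against distance in kb from the hid start site, with thresholded peaks in red and weaker peaks in grey. Dark blocks are the 4 named genes, blue blocks other protein-coding genes and yellow blocks RNA genes. The dashed line is the lowest thresholded signal, 72.3, and 5 of the 7 red stems lie between hid and rpr, away from both.

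The caspase genes had no thresholded peak at their own start sites. Dronc (FBgn0026404, chr3L:9968479-9971002, plus strand) came just under the threshold: a peak with its summit at 9968387, 92 bp upstream of Dronc, had signal 63.9 and rank 3881. Its −log10 q-value was 3.04, against 3.81 for every thresholded peak. In replicate 2 it had signal 31.0 and rank 3615, and in replicate 3 signal 34.9 and rank 4223. Both replicates placed it just past the strongest 3205 of their lists. The summit lay between divergent genes and was closer to the start of the neighbour CG6685 (70 bp) than to that of Dronc. In replicate 2 the strongest peak of the window was another one, at 9972757, with rank 2739. It lay at the shared start of vnc and CG42455, and the pooled peak there, 41 bp from that start, had signal 42.3 and rank 7365.

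The sequence between the start sites of CG6685 and Dronc (dm6 chr3L:9968318-9968478, plus strand, from RefSeq Release 6) is printed because this promoter peak is shared by a divergent pair, with the 11 bp at the summit in capitals.
Dronc promoter: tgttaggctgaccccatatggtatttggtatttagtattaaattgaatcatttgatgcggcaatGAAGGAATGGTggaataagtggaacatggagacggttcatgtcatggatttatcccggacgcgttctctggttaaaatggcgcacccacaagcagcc

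Drice (FBgn0019972, chr3R:29799658-29801584, plus strand) had a thresholded peak in its window that lay nearer to the start sites of neighbours. The peak chr3R:29802893-29803282 had signal 133 and rank 1124, with signal 53.8 and rank 1320 in replicate 2 and signal 77.9 and rank 1113 in replicate 3. Its pooled summit was 108 bp from the start of CG7789 and 3430 bp from that of Drice. The replicate 2 summit was also nearest to CG7789 (125 bp), but the replicate 3 summit was nearest to Etfb (103 bp). The Drice start site had a weaker peak 29 bp upstream, with signal 61.8 and rank 4108. Replicate 2 ranked it 6422 (signal 23.1) and replicate 3 ranked it 3342 (signal 40.7). It was therefore outside the strongest 3205 of every list.

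The p53 gene (FBgn0039044, chr3R:23049657-23054082, minus strand) had a peak at its promoter and another beyond its 3' end. The promoter peak, chr3R:23053910-23054299, had its summit at 23054105, 23 bp upstream of the outermost of 3 start sites and within an exon of the antisense RNA gene asRNA:CR46089. Its signal was 140 and its rank 1025. Replicate 2 gave signal 77.9 and rank 637, and replicate 3 signal 62.7 and rank 1621. The downstream peak, chr3R:23048620-23049009, had its summit at 23048815, 601 bp from the start of CG17121 and 2415 bp from the nearest p53 start site. Its signal was 109 and its rank 1618. Here replicate 2 gave signal 31.0 and rank 3619, and replicate 3 signal 74.6 and rank 1192. The replicates thus ordered these peaks differently, the promoter peak being the stronger in replicate 2 and the downstream peak in replicate 3.

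The p53 promoter peak alone among the 9 held the DNA replication-related element (DRE), TATCGATA, the recognition sequence of the transcription factor Dref. There were 2 copies, at chr3R:23054132-23054139 and chr3R:23054143-23054150, between 50 and 68 bp upstream of the p53 start site. The element was present at 5.74% of all thresholded summits and 6.45% of protein-coding start sites. At least 2 copies, counted after this site was seen, were present at 16 of 3205 summits (0.499%, exact binomial 95% interval 0.286 to 0.809) and 0.436% of start sites. The 150 bp upstream of the p53 start site (dm6 chr3R:23054083-23054232, minus strand, from RefSeq Release 6) show both copies in capitals.
p53 promoter: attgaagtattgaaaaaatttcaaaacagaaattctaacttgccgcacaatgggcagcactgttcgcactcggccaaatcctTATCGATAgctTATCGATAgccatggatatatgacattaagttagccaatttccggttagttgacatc

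The other sequences searched had no match within 100 bp of any of the 9 summits. They were motif 1 (GGTCACAC), the Cnc-Maf core TGACNNNGC, the AP-1 site TGACTCA, the cyclic AMP element TGACGTCA, the E-box CACGTG, the C/EBP-ATF sequence TGATGNAAT and the GAGA repeat GAGAGAG, each on both strands. Of all 3205 thresholded summits, 3.59% held motif 1, 5.74% the Cnc-Maf core, 2.15% the AP-1 site, 0.343% the cyclic AMP element, 2.62% the E-box, 0.811% the C/EBP-ATF sequence and 3.56% the GAGA repeat. At 201 bp around protein-coding start sites these shares were 5.68%, 6.49%, 1.59%, 0.275%, 2.80%, 0.831% and 4.69%. At shares this low, the lack of a match in 9 windows does not show a departure from the other peaks. The GC content of the 9 windows ran from 28.9% (at a pair of Diap1 sites) to 44.3%, around a median of 36.8% for all thresholded summits.

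Both replicates held a peak within 150 bp of each of the 9 thresholded summits, as they did for 3159 of all 3205. The thresholded list derives from the lists of these replicates and was thresholded for reproducibility. A match of its peaks in both replicates is thus partly set by that selection. Of the 67 pooled-list peaks in the windows, 34 were matched in both. Across all matched thresholded peaks the log2 ratio of the rank in replicate 2 to that in replicate 3 had a median of 0.05 and an SD of 0.92, and its middle 90% ran from -1.35 to 1.57. The p53 sites were near the ends of that range, at -1.35 for the promoter and 1.60 for the downstream peak. The latter was the only one of the 9 outside it. The other 7 ranged from -0.60 (the Diap1 site at 16048343) to 0.71 (the strongest Diap1 site). Since there was 1 group of 2 replicates, no test across samples was possible.

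**Figure D4:**
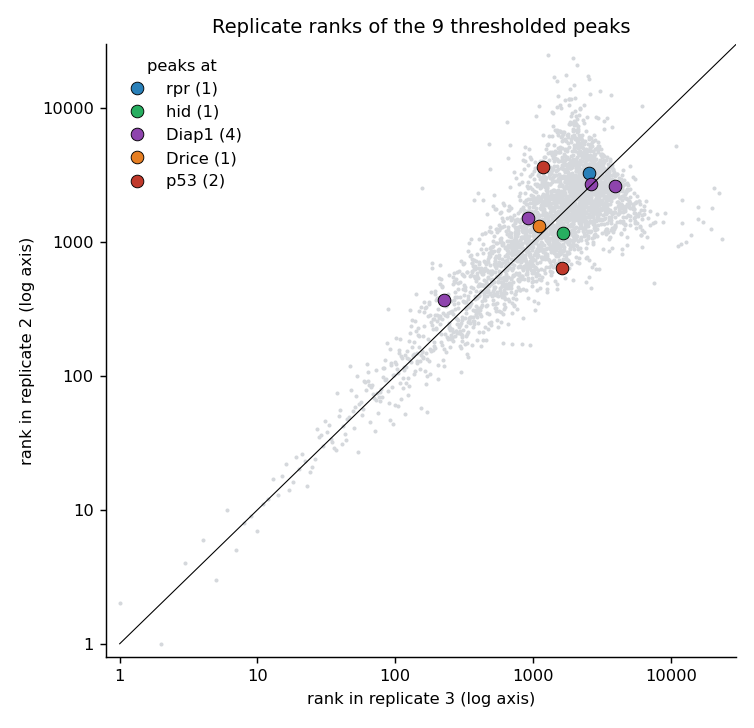
Rank of each thresholded peak in replicate 2 against its rank in replicate 3, both on log axes, with the line of equal rank. Grey points are the 3159 thresholded peaks matched in both replicates, and coloured points are the 9 near the apoptosis genes. The p53 sites lie on opposite sides of the line, and the strongest Diap1 site is at ranks 370 and 226.

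**Figure D5:**
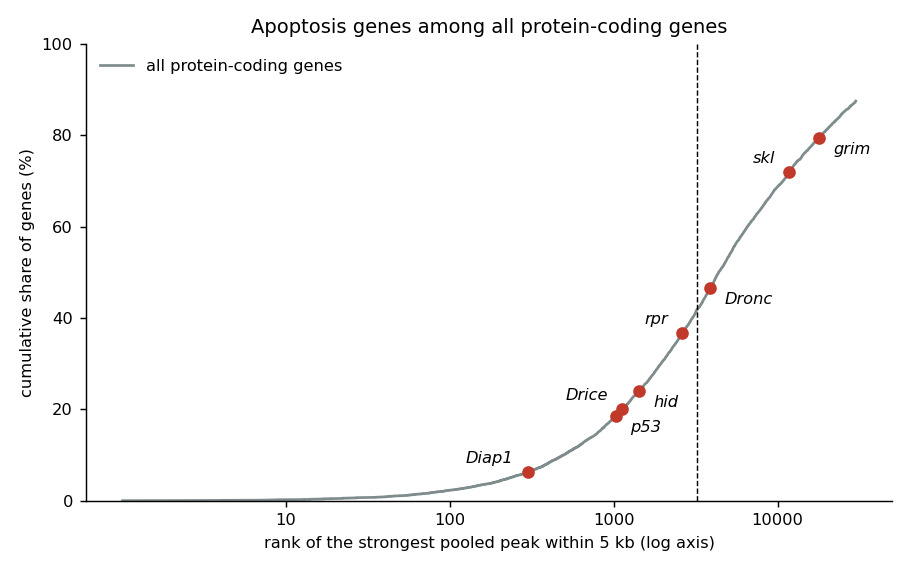
Cumulative share of the 13945 protein-coding genes by the rank of the strongest pooled-list peak within 5 kb, on a log axis, with the 8 apoptosis genes marked in red. The dashed line is rank 3205. Diap1 is at rank 300, p53, Drice and hid lie between 1025 and 1427, and skl and grim are at 11761 and 17903.

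A wider list of 41 apoptosis pathway genes was counted in the same way, and all 41 were matched to the annotation. Of these, 13 (31.7%) had a thresholded summit within 1 kb of a start site and 31 (75.6%) had one within 5 kb of the gene, beside the 19.4% and 41.8% of all protein-coding genes. The listed genes were longer, with a median of 4771 bp against 2166 bp, and longer genes have larger windows in the 5 kb count. The 1 kb count depends on the number of annotated start sites, which was not compared. The effect of length on the counts was not tested. By role, the summits near start sites fell at 4 of 7 genes of the DNA damage response, 4 of 10 of the tumour necrosis factor and JNK arm, 2 of 4 engulfment genes, 2 of 7 genes of DNA fragmentation and mitochondrial factors, and 1 of 6 genes of caspase activation and inhibition. None of the 5 further caspase genes and neither of the 2 Bcl-2 family genes had one. Within 5 kb of the gene, by contrast, a summit was present at 4 of the 5 caspase genes, 1 of the 2 Bcl-2 family genes, 5 of 6 genes of caspase activation and inhibition, 6 of 7 of the DNA damage response, 7 of 10 of the JNK arm, 5 of 7 of fragmentation and mitochondrial factors and 3 of 4 engulfment genes.

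The values that follow are those of the strongest thresholded peak within 1 kb of a start site of each gene, and some windows of 5 kb held stronger ones (rank 8 at tefu and rank 267 at Cyt-c-p). Within the DNA damage arm, Irbp18, a leucine zipper partner of Xrp1, had the strongest such peak (signal 296, rank 201), but the start site of APP-BP1 was nearer to its summit. The ATM kinase gene tefu followed (164, rank 763), at a peak nearest to Hsc70-4, and then grp, the Chk1 kinase gene (138, rank 1052), at one nearest to CG31807. In the JNK arm msn, a kinase upstream of JNK signalling, had signal 138 and rank 1054, with RpL8 the gene of the nearest start site. The kinase gene Tak1 (124, rank 1309, 214 bp from its start), Traf6 (110, rank 1590, 46 bp) and the receptor gene wgn (93.8, rank 2079, 569 bp) had peaks nearest to themselves. The cytochrome c genes Cyt-c-d (270, rank 267) and Cyt-c-p (136, rank 1086) neighbour each other, and the Cyt-c-d summit was nearest to CG31808. HtrA2, a mitochondrial protease that cleaves Diap1, had signal 104 and rank 1742, 98 bp from its own start. Of these 10 peaks, 5 were nearest to the start site of the gene they are listed for.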

How the data were processed

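The deposited peak lists were analysed on the dm6 assembly: 1 per replicate, 1 from the pooled replicates and 1 thresholded for reproducibility. Per the deposited file notes, each replicate list and the pooled list derive from the replicates' alignments and a further alignment, and the thresholded list derives from the other 3. Each peak has a signal score as deposited by the authors, a −log10 q-value as deposited by the authors and a summit offset. Aligner, peak caller, reproducibility threshold and read depth: not given in the sources used here. Lists on the dm3 assembly were not used here.

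Genes and start sites came from Ensembl release 115 without transposable elements, and sequence from the RefSeq copy of Release 6. Positions are 1-based. A summit was assigned to every gene within 5 kb of it, and peaks of different lists were matched by summits within 150 bp. Motif searches covered either strand of the 201 bp centred on each summit. Where a share is given with an interval, it is an exact binomial 95% interval, which covers counting error only. Counting steps were tested on simulated data. Python 3.11.15 with numpy 2.4.6, pandas 2.3.3 and scipy 1.17.1 was used.

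The members, the wider gene list and the counting rules were chosen with earlier results of these data known. Named were all 8 members, the gene with the start site nearest to each thresholded summit or to the best peak of a window without one, and the 10 genes of the wider list with the strongest thresholded peaks within 1 kb of a start site. Other genes and sites, among them those of the peaks that did not pass the threshold, were named after their values were seen. Alternatives were the 1602 strongest thresholded peaks, the 3205 strongest peaks of each replicate alone, other distances, interval overlap and wider motif windows.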

Additional observations from a re-analysis of the deposited data

How the results depend on the processing

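The count of genes with a thresholded summit within 5 kb was 4 or 5 of 8 under the alternatives run, while the share of all protein-coding genes moved from 41.8% to 26.1% among the 1602 strongest peaks, 29.8% at 2 kb and 55.2% at 10 kb, where 5 of 8 is near the background. The genes were not always the same. The strongest 3205 peaks of replicate 3 alone named rpr, hid, Diap1, Drice and p53. Those of replicate 2 alone had Dronc in place of rpr, through the peak at the shared start of vnc and CG42455. The Dronc promoter peak had rank 3615 in replicate 2, outside these 3205. At 2 kb and among the 1602 strongest peaks rpr was lost. The count within 1 kb of a start site was 3 with either replicate alone. At 500 bp it was 2 (hid and p53), against 16.9% of all protein-coding genes. At 5 kb it was 5, against 36.1%, up from 19.4% at 1 kb. By the nearest start site at any distance the count was 3 among the 1602 strongest peaks and 3 with replicate 2 alone. It was 4 with replicate 3 alone. With protein-coding start sites alone it was 5, as grim was then nearest to a summit 44.4 kb away. The shares of all protein-coding genes under these settings are not given here. Among the 1602 strongest peaks the windows held 5 summits and the stretch from hid to skl 3. The wider list then had 8 of 41 genes within 1 kb of a start site, against 11.1% of all protein-coding genes. With all thresholded peaks the wider list went from 13 genes at 1 kb to 24 at 5 kb of a start site, against 36.1%. At 500 bp of a start site the wider list had 10 genes, against 16.9%. The rank of the strongest peak with each replicate alone ran from 2564 to 3295 at rpr, 7570 to 14533 at grim, 11268 to 19576 at skl, 2739 to 4223 at Dronc and 1113 to 1320 at Drice. With 2 kb either side it was 8394 at rpr and 23209 at grim. Motif windows of 250 bp either side were chosen after seeing the data. In them the AP-1 site was at 2 of the 9 summits, against 5.02% of all thresholded summits. The Cnc-Maf core, the E-box, the C/EBP-ATF sequence and the GAGA repeat were at 1 each. Their shares of all thresholded summits in these wider windows were 14.9%, 7.55%, 2.12% and 13.9%. The causes were not tested. No paired analysis was possible because there was 1 group. Read depth is unknown and its effect on the ranks was not tested, so ranks past 3205 are to be read with caution.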
